A study of Saccharomyces cerevisiae with 8 samples.

Results

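Hexose transporters carry glucose into yeast cells, and the transcripts of 8 genes of this family (HXT1, HXT2, HXT3, HXT4, HXT5, HXT7, HXT13 and HXT17) are described here, of 5449 Saccharomyces cerevisiae genes measured. The members were the probe sets annotated to these symbols, and the brightest probe set stood for a gene that had several. Total RNA was measured on 8 Affymetrix arrays, 2 for a strain that the labels call parental BY4742, a haploid laboratory strain, and 2 for each of 3 evolved strains. The evolved strains were individual isolates taken after approximately 450 generations of growth in high glucose. The medium was CM broth holding glucose at 2% and ammonium sulfate at 0.5%; flasks of 100 ml were aerated at 30 °C, and 10 µl went into a fresh flask daily for a month. The labels give the same growth and glucose treatment for every sample, and they do not say at what point of growth the RNA was taken or whether the 3 isolates came from separate flasks. The comparison asked how the isolates differed from their parent.

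A yeast cell takes up glucose by facilitated diffusion, and its hexose transporters differ in how tightly they bind it. HXT1 and HXT3 encode low-affinity carriers that serve when glucose is plentiful. HXT2, HXT4 and HXT7 encode carriers of higher affinity, known for being transcribed when glucose is low and repressed when it is high. HXT5 encodes a carrier of moderate affinity known from slowly growing cells, and HXT13 and HXT17 encode relatives that can carry polyols such as mannitol and sorbitol. Transcription of the main carriers is held down by the repressor Rgt1, which acts with Std1 and Mth1. Glucose bound by the membrane sensors Snf3 and Rgt2 leads to the loss of Std1 and Mth1. The repressor Mig1 carries glucose repression, which the kinase Snf1 relieves when glucose is low.

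Levels below are log2 intensity, and each is relative to the overall brightness of its array. A probe set was taken as above background when it exceeded the 95th percentile of the probe sets for another yeast species on the same array, which lay between 4.27 and 4.40. Several strain markers went against the label BY4742, which is an alpha strain with LYS2, URA3 and LEU2 deleted and MET17 intact. LYS2, LEU2 and MET17 did so on the evolved arrays too, while URA3 fitted the label on all 8 arrays. The a-specific pheromone gene MFA2 had a level of 12.57 ± 0.05 (SD, n = 2) on the arrays labelled parental, against 6.96 ± 0.12 (SD, n = 6) over the evolved strains. The alpha pheromone gene MF(ALPHA)1 was at background on both arrays labelled parental and stood at 5.52 ± 0.20 (SD, n = 6) over the evolved strains. The other mating type genes did not all follow: 5 of 6 a-specific genes were higher on the arrays labelled parental but STE6 was not (8.59 against 8.91), and of the alpha-specific genes MF(ALPHA)2 was above background there at 4.88 ± 0.50 (SD, n = 2), STE3 stood at 7.11 against 7.59, and SAG1 at 7.93 against 7.75. LYS2 gave a clear signal on each of the 8 arrays, 9.07 ± 0.04 (SD, n = 2) for those labelled parental and 11.48 ± 0.12 (SD, n = 6) for the others. MET17 exceeded background on 2 of 8, 1 of the 2 labelled parental and 1 of the 6 evolved. URA3 was at background on all 8, at 3.62 on the mean of those labelled parental and 3.31 over the evolved strains. LEU2 exceeded background on all 8, at 5.33 and 5.29. Of 14 such strain markers 12 were called on the mean of the evolved strains, 5 higher and 7 lower on the deposited scale, a count near the background, since 86.7% of all genes were called there. Across genes, r was 0.9993 to 0.9994 within an evolved strain, 0.9972 between the arrays labelled parental, and 0.912 to 0.923 between these and the evolved arrays. Genes are not independent replicates. Of 7 control transcripts, 5 had a larger gap between their 3′ and 5′ probe sets in the arrays labelled parental. The control RNAs added to the samples also differed between the groups, and their values are given at the end; on their scales all genes move up together, by 2.74 or 0.84 log2 units at the median, so that a lower value of smaller size given below turns positive there. The part of the strain labels, of RNA quality and of the control RNAs in the differences described here was not tested.

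On the mean of the 3 evolved strains, HXT1, HXT2, HXT3 and HXT4 were higher than in the arrays labelled parental, by 4.0-fold, 22.7-fold, 11.7-fold and 10.3-fold. HXT5, HXT13 and HXT17 were lower on the scale of the deposited values, by 1.15-fold, 2.50-fold and 1.58-fold, while on the scale of the poly-A control RNAs all 3 differences were positive. On that of the hybridisation controls those of HXT5 and HXT17 were positive, and HXT17 did not pass the test there (adjusted p = 0.153). HXT7 differed by -0.04 ± 0.03 (SE) on the log2 scale and did not pass the test. In limma's moderated test with Benjamini-Hochberg adjustment, 7 of the 8 members passed an adjusted p of 0.05, 4 of them higher and 3 lower. The same contrast called 86.7% of all genes, 43.3% higher and 43.4% lower, so the number of members called was near the background. Of the 8, 5 differed by at least 2-fold and were called, beside 20.8% of all genes. HXT13 was among these, but at 1.71-fold without replicate 1 labelled parental. The median absolute difference was 1.66 for the members and 0.49 for all genes, and the signed medians were 0.98 and -0.01.

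**Figure D1:**
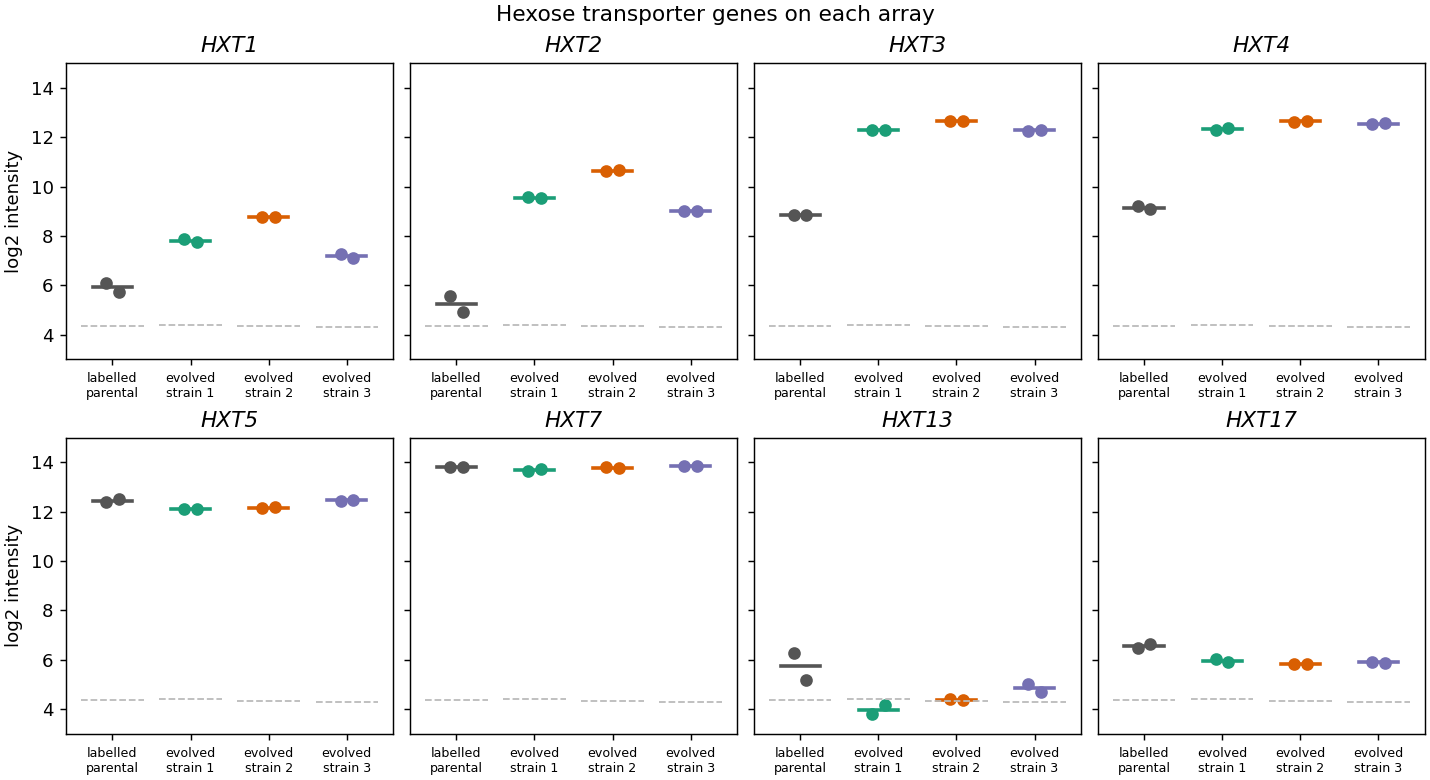
Level of each of the 8 hexose transporter genes on each of the 8 arrays, in log2 intensity, with 1 panel per gene. Points are arrays, solid lines are group means, and dashed grey lines are the mean background level of each group. HXT1, HXT2, HXT3 and HXT4 lay lower on both arrays labelled parental than on all 6 evolved arrays, while HXT7 lay between 13.66 and 13.85 on every array.

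HXT2, a transporter of relatively high affinity, had the largest difference of the 8. Its level was 5.57 and 4.90 on the arrays labelled parental, 9.56 and 9.55 in strain 1, 10.62 and 10.67 in strain 2, and 9.02 on each array of strain 3. In deposited intensity units this was 47.4 and 29.9 against 519 to 1630. Every evolved array was far above both arrays labelled parental, where the gene was only slightly above background. The difference was 4.32 ± 0.19 (SE) in strain 1, 5.41 ± 0.19 in strain 2 and 3.78 ± 0.19 in strain 3, or 20.0-fold, 42.5-fold and 13.8-fold. Each passed limma's test, with adjusted p-values of 9.25e-07, 2.99e-07 and 1.69e-06. These 3 comparisons share the 2 arrays labelled parental, as do those for every gene below. The arrays labelled parental were 0.66 apart for HXT2, and the mean difference was 28.6-fold without replicate 1 of them and 18.0-fold without replicate 2.

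HXT4, which also encodes a carrier of higher affinity, went from a middling level to a very high one. Its level was 9.20 and 9.08 on the arrays labelled parental, 12.30 and 12.36 in strain 1, 12.62 and 12.65 in strain 2, and 12.53 and 12.56 in strain 3. The 3 strains lay close together and all far above the arrays labelled parental. The difference was 3.19 ± 0.05 (SE) in strain 1, 3.49 ± 0.05 in strain 2 and 3.40 ± 0.05 in strain 3, or 9.15-fold, 11.3-fold and 10.6-fold, with adjusted p-values of 2.22e-08, 1.42e-08 and 1.85e-08 in limma's test.

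HXT3, the low-affinity carrier that is induced over a broad range of glucose, had differences close in size to those of HXT4. It stood at 8.86 and 8.85 on the arrays labelled parental, 12.28 and 12.30 in strain 1, 12.66 and 12.64 in strain 2, and 12.27 and 12.28 in strain 3. The arrays of a group were nearly equal, with SDs of 0.01 to 0.02, and the evolved arrays lay far above both labelled parental. The difference was 3.43 ± 0.03 (SE) in strain 1, 3.79 ± 0.03 in strain 2 and 3.42 ± 0.03 in strain 3, or 10.8-fold, 13.9-fold and 10.7-fold. Adjusted p-values were 6.26e-09, 3.6e-09 and 6.46e-09 in limma's test.

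HXT1, the low-affinity carrier known for needing high glucose for full induction, was higher in every evolved strain but by less. It stood at 6.10 and 5.72 on the arrays labelled parental, 7.86 and 7.76 in strain 1, 8.76 on each array of strain 2, and 7.25 and 7.09 in strain 3. In intensity units these were 68.8 and 52.7, 232 and 216, 434 and 434, and 152 and 136. The groups did not overlap, and the 3 evolved strains lay well apart from one another. The difference was 1.90 ± 0.12 (SE) in strain 1, 2.85 ± 0.12 in strain 2 and 1.26 ± 0.12 in strain 3, or 3.72-fold, 7.21-fold and 2.39-fold, with adjusted p-values of 6.7e-06, 7.99e-07 and 5.87e-05 in limma's test.

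HXT7 encodes a high-affinity carrier, and its signal was strong on every array. Its probe set carries Affymetrix's mark for probes shared by several transcripts. HXT6, whose sequence is almost identical, has no probe set of its own among those assigned, so the value may hold both transcripts and is uncertain for either one. The level was 13.81 and 13.82 on the arrays labelled parental, 13.66 and 13.73 in strain 1, 13.80 and 13.79 in strain 2, and 13.83 and 13.85 in strain 3. All 8 arrays lay between 13.66 and 13.85, near the top of the scale: only 59 to 99 genes were brighter on an array, and the brightest reached 14.76 to 14.83. The difference was -0.12 in strain 1, with a 95% interval from -0.20 to -0.04 and an adjusted p of 0.0119 in limma's test. This call was lost when strain 1 and the arrays labelled parental were fitted alone (adjusted p = 0.0585) and without replicate 1 of strain 1 (0.0745), and the value turned positive on the scales of both kinds of control RNA. In strains 2 and 3 the intervals ran from -0.10 to 0.06 and from -0.05 to 0.11, with adjusted p-values of 0.54 and 0.407. With each array centred on its median, the values for strain 2 and for the mean of the strains passed the test, at -0.11 (adjusted p = 0.0256) and -0.10 (0.0169). On the poly-A and hybridisation control scales strain 2 stood at 2.73 and 0.86 and strain 3 at 2.81 and 0.88, and each passed the test.

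HXT5, the carrier known from slow growth and non-fermentable carbon sources, differed little and not alike in the 3 strains. It stood at 12.38 and 12.51 on the arrays labelled parental, 12.10 and 12.11 in strain 1, 12.16 and 12.18 in strain 2, and 12.45 and 12.48 in strain 3. Strains 1 and 2 lay below both arrays labelled parental, and strain 3 lay between them. On the scale of the deposited values HXT5 was lower by 1.26-fold in strain 1 and 1.21-fold in strain 2, with adjusted p-values of 0.000313 and 0.000842 in limma's test, but both differences turned positive on both control scales. In strain 3 the difference was 0.02 with an interval from -0.09 to 0.13 (adjusted p = 0.685). On the poly-A and hybridisation control scales it was 2.80 (adjusted p = 2.8e-43 in limma's test) and 0.87 (9.34e-09). The call on the mean of the strains (adjusted p = 0.00165) was lost with strain as a random block (adjusted p = 0.314).

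HXT13 had the least certain values of the 8. It stood at 6.28 and 5.19 on the arrays labelled parental, 3.79 and 4.18 in strain 1, 4.40 and 4.38 in strain 2, and 5.01 and 4.71 in strain 3. The 2 arrays labelled parental were 1.09 apart, both arrays of strain 1 were at background, and those of strain 2 only just exceeded it. On the deposited scale the gene was at least 2.53-fold lower in strain 1 (adjusted p = 0.00216), 2.54-fold lower in strain 2 (0.00753) and 1.83-fold lower in strain 3 (0.0443) in limma's test, and higher in all 3 on the poly-A control scale. The mean difference was 1.71-fold without replicate 1 of the arrays labelled parental and 3.66-fold without replicate 2, and with strain as a random block its adjusted p was 0.209. The call in strain 3 was lost without replicate 1 labelled parental (a log2 difference of -0.33, adjusted p = 0.133, against -1.42 without replicate 2). In strain 2 the difference was -0.80 without replicate 1 labelled parental, against -1.35 with it. The call in strain 3 was also lost without any 1 of the 6 evolved arrays (adjusted p from 0.061 to 0.176), after quantile normalization (0.108), on the hybridisation control scale (-0.02, adjusted p = 0.902) and with the 2 groups fitted alone (0.0979).

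HXT17 differed in the same direction in the 3 strains. It stood at 6.49 and 6.63 on the arrays labelled parental, 6.04 and 5.90 in strain 1, 5.84 and 5.83 in strain 2, and 5.93 and 5.86 in strain 3. All evolved arrays were below both arrays labelled parental. On the deposited scale it was lower by 1.51-fold in strain 1, 1.66-fold in strain 2 and 1.59-fold in strain 3, with adjusted p-values of 0.000117, 3.55e-05 and 6.12e-05 in limma's test, while both control scales turned the difference positive, without passing the test on the hybridisation scale (adjusted p from 0.193 to 0.344). The probe set used for HXT17 also carries the mark for shared probes, so its level is uncertain for this gene alone.

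HXT13 and HXT17 were the members with more than 1 probe set, 10 probe sets standing for the 8 genes. The other probe set of HXT13 exceeded background on the 2 arrays labelled parental, at 5.12 and 4.74, and on none of the 6 evolved arrays, so its difference has no exact size. The other of HXT17 was at background on all 8 arrays, so no difference is given for it. The suffix of both marks probes that may bind unrelated transcripts too.

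**Figure D2:**
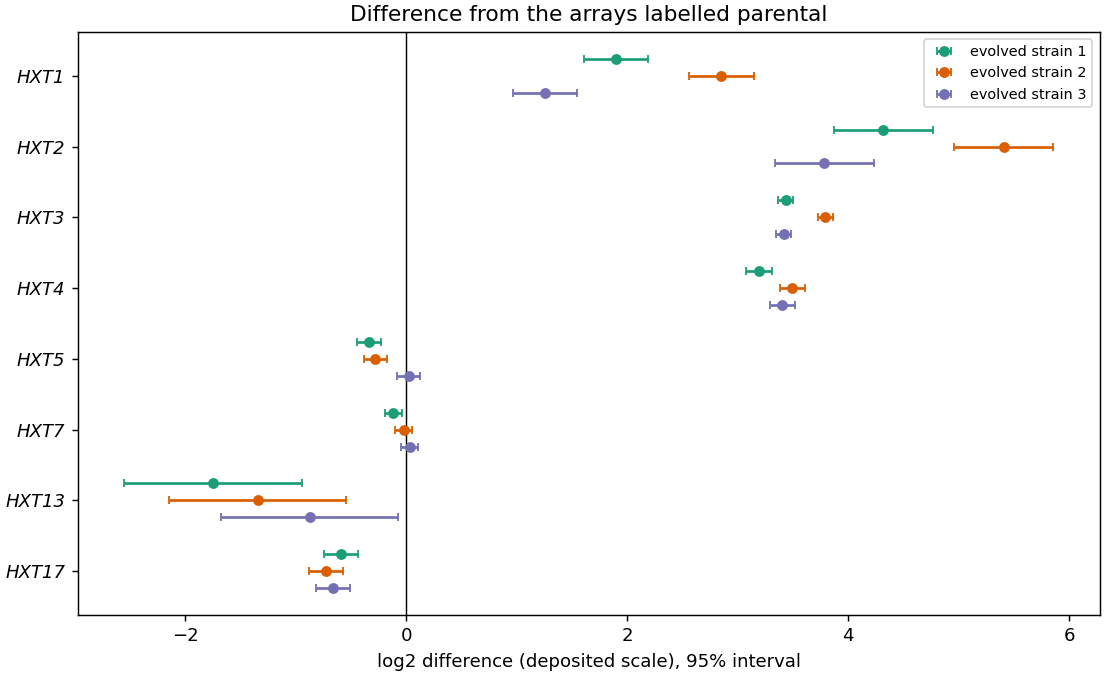
Difference of each evolved strain from the arrays labelled parental for the 8 members, in log2 on the deposited scale, with points for fitted values and bars for 95% confidence intervals. HXT1 to HXT4 lay above 0 in all 3 strains, HXT13 and HXT17 below 0 there (HXT17 above 0 on both control scales, HXT13 on the poly-A scale), and the bars of HXT13 are the widest.

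Strain by strain, limma's test called 8 of 8 members in strain 1 (4 higher, 4 lower on the deposited scale) beside 84.5% of all genes (40.6% higher, 43.9% lower). In strain 2 it called 7 (4 higher, 3 lower) beside 85.1% (42.5% and 42.6%), and in strain 3 it called 6 (4 higher, 2 lower) beside 84.1% (43.0% and 41.1%). Calls of at least 2-fold numbered 5, 5 and 4 of the 8 members in strains 1, 2 and 3, beside 20.4%, 22.6% and 20.7% of all genes. HXT13, a gene near background, was among them in strains 1 and 2. Without replicate 1 labelled parental its difference in strain 2 was 1.74-fold. HXT1, HXT2, HXT3 and HXT4 were at least 2-fold higher and called in all 3 strains, which held for 8.37% of all genes. All 6 evolved arrays lay above both arrays labelled parental for those 4 members and 38.2% of genes. They lay below for HXT13 and HXT17, and for 38.9% of genes. Among 5449 genes ordered by the mean difference, HXT2 was the third largest, HXT3 the fifth, HXT4 the seventh and HXT1 the 96th from the top. HXT13 was the 304th from the bottom.

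**Figure D3:**
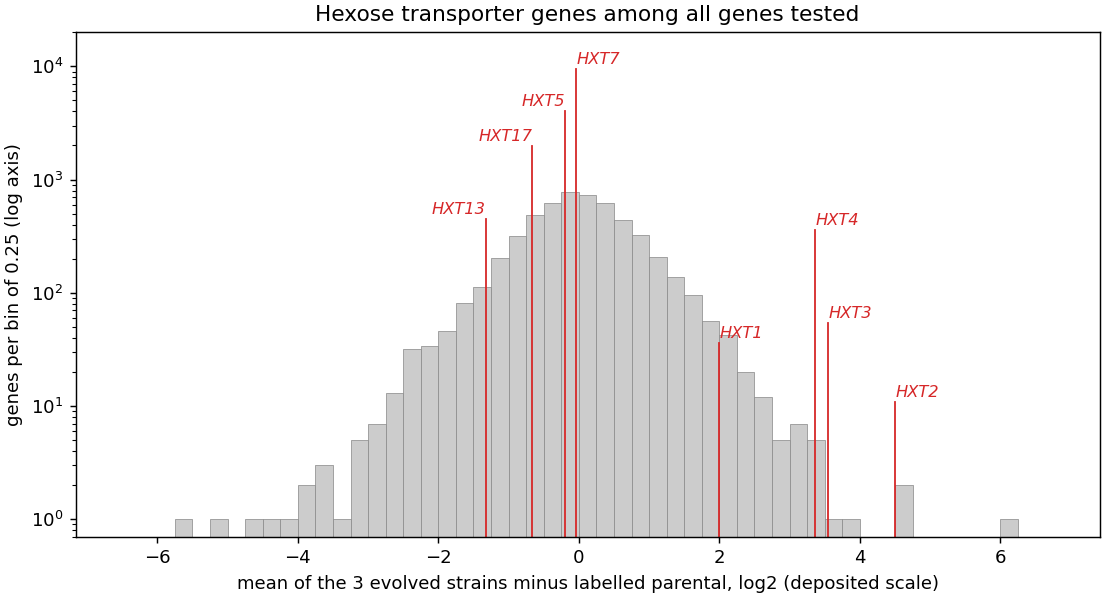
Histogram of the mean difference of the 3 evolved strains from the arrays labelled parental over 5449 genes, in log2 on the deposited scale, with a log axis for the number of genes; red lines mark the 8 members, and their heights carry no value. HXT2, HXT3 and HXT4 lie in the far right tail at 4.50, 3.55 and 3.36, HXT1 lies at 2.00, and HXT5 and HXT7 lie close to the centre.

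Probe sets bind with different strength, so levels are compared for each gene over the groups and not between genes. For HXT1, HXT2 and HXT3 strain 2 had the highest level of the 4 groups, and the arrays labelled parental the lowest. HXT4 was also highest in strain 2, at 12.64 ± 0.02 (SD, n = 2), but strain 3 at 12.55 ± 0.02 was its neighbour and the interval of their difference, from -0.21 to 0.03, included 0. For HXT3, strains 1 and 3 at 12.29 ± 0.02 and 12.27 ± 0.01 did not differ beyond their spread either (adjusted p = 0.639).

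HXT1 and HXT2 differed between every pair of evolved strains, in the same order: strain 2, then strain 1, then strain 3. HXT1 was 1.94-fold higher in strain 2 than in strain 1 (log2 interval 0.66 to 1.25, adjusted p = 0.00117 in limma's test). It was 1.56-fold lower in strain 3 than in strain 1 (interval -0.93 to -0.35, adjusted p = 0.00473) and 3.02-fold lower in strain 3 than in strain 2 (interval -1.89 to -1.30, adjusted p = 0.000495). HXT2 was 2.13-fold higher in strain 2 than in strain 1 (interval 0.64 to 1.54, adjusted p = 0.00354), and 3.08-fold lower in strain 3 than in strain 2 (interval -2.07 to -1.18, adjusted p = 0.00177). Between strains 3 and 1 HXT2 was 1.45-fold lower in strain 3 (interval -0.98 to -0.09, adjusted p = 0.0455). On the poly-A control scale neither gene passed the test between strains 3 and 1, at -0.57 for HXT1 (adjusted p = 0.142) and -0.46 for HXT2 (adjusted p = 0.258). The call of HXT2 between these strains was also lost without any 1 of the 6 evolved arrays. Its adjusted p was 0.000207 in limma's fit of the 6 evolved arrays alone, which leaves out the wide gap between the arrays labelled parental. The spread of HXT2 in that fit was small: both arrays of strain 3 held the same intensity, 519, and the SD in strain 1 was 0.005.

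Few genes differed by 2-fold or more between evolved strains. Between strains 3 and 2, 13 genes (0.239% of those tested) were called at 2-fold or more, HXT1 and HXT2 among them; HXT2 had the largest difference of all genes by size and HXT1 the second largest. Between strains 2 and 1 there were 12 (0.220%), including HXT2, the ninth largest, while HXT1 was the 15th largest by size. Between strains 3 and 1, 1 gene (0.0184%) reached it, and it was not a member. Being called against both other strains, in all 3 pairs, held for HXT1 and HXT2 and for 11.5% of all genes.

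**Figure D4:**
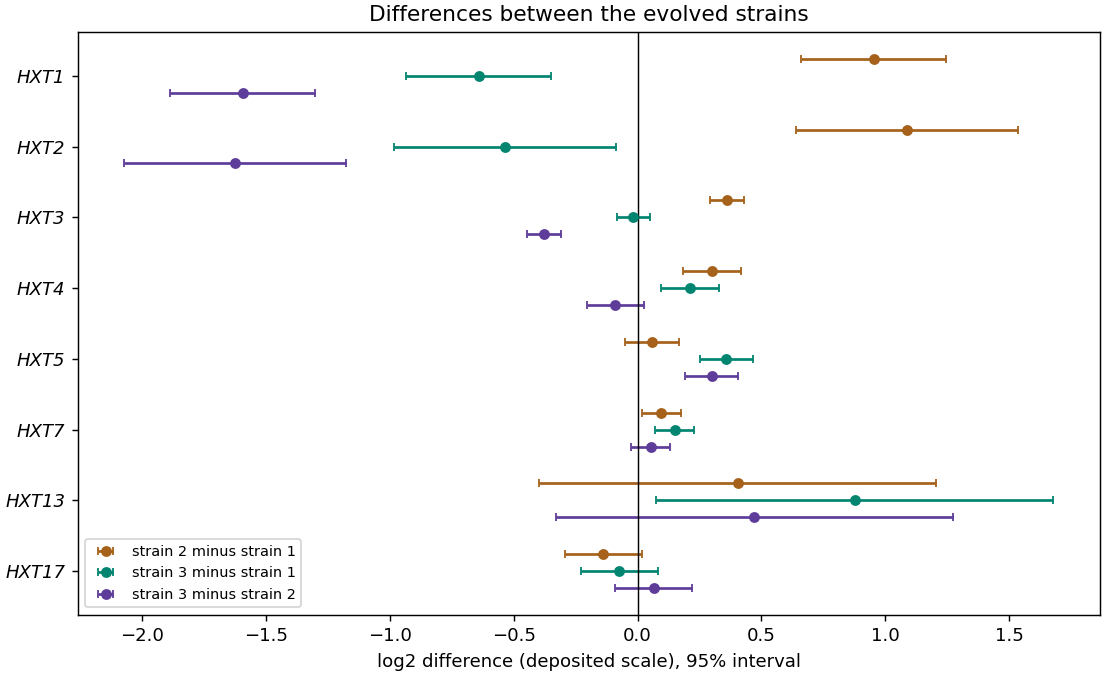
Pairwise differences between the 3 evolved strains for the 8 members, in log2, with points for fitted values and bars for 95% confidence intervals. HXT1 and HXT2 lie farthest from 0 when strain 3 is set against strain 2, at -1.60 and -1.62, while HXT17 stays near 0 in all 3 pairs.

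The other members differed less between evolved strains. HXT3 was 1.28-fold higher in strain 2 than in strain 1 (adjusted p = 0.000302 in limma's test) and 1.30-fold lower in strain 3 than in strain 2 (adjusted p = 0.00047). HXT4 was 1.23-fold higher in strain 2 than in strain 1 (adjusted p = 0.00274) and 1.16-fold higher in strain 3 than in strain 1 (adjusted p = 0.00956). The second of these was lost without replicate 1 of strain 1 (adjusted p = 0.0611) or replicate 2 of strain 3 (0.0553). HXT5 was higher in strain 3 than in strain 1 by 1.28-fold (adjusted p = 0.000971) and than in strain 2 by 1.23-fold (adjusted p = 0.00442). HXT7 was 1.11-fold higher in strain 3 than in strain 1 (adjusted p = 0.00808) and 1.07-fold higher in strain 2 than in strain 1 (adjusted p = 0.0443). With each array centred on its median, neither call of HXT7 held (adjusted p = 0.0626 and 0.514). The first was also lost without replicate 1 of strain 1 (0.0507) or replicate 2 of strain 3 (0.0511), and the second without replicate 1 of strain 1 (0.218), either array of strain 2 (0.167 and 0.132) or either array of strain 3 (0.0741). On the control RNA scales most of these calls were lost too: on both scales for HXT3 between strains 3 and 2 (adjusted p = 0.999 on the poly-A and 0.136 on the hybridisation scale), HXT5 between strains 3 and 2 (0.999 and 0.523), HXT4 between strains 2 and 1 (0.556 and 0.071) and 3 and 1 (0.538 and 0.23), and both calls of HXT7. On the poly-A scale alone HXT3 between strains 2 and 1 (0.451) and HXT5 between strains 3 and 1 (0.293) were lost. All these differences kept their sign on the poly-A scale. There HXT3 differed by -0.35 between strains 3 and 2 (-0.38 on the deposited scale). HXT5 differed by 0.43 between strains 3 and 1 (0.36). The poly-A controls averaged 7.39 and 7.32 in strain 1, 7.15 and 7.48 in strain 2, and 7.15 and 7.42 in strain 3. The part of this spread in the lost calls was not tested.

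For HXT13 and HXT17 no pair of evolved strains passed the main test. HXT13 was 0.88 higher on the log2 scale in strain 3 than in strain 1, with an interval from 0.07 to 1.68 and an adjusted p of 0.0611, and in the fit of the 6 evolved arrays alone its adjusted p was 0.00268, as it was without either array labelled parental. It also passed with a trended robust fit (0.0222), with the mean of the gene's probe sets (0.0374) and on the poly-A (0.00344) and hybridisation (5.4e-07) scales. Strains 2 and 1 were called apart on the hybridisation scale (0.49, adjusted p = 0.0165). Strains 3 and 2 were called apart in the fit of the evolved arrays (0.47, adjusted p = 0.0412). Strain 1 was at background for this gene, so the fold is at least 1.38. HXT17 differed by 0.14 or less between any 2 evolved strains, with intervals reaching from -0.29 to 0.22. Between strains 2 and 1 it was called after quantile normalization (-0.29, adjusted p = 0.02) and with median centring (-0.20, adjusted p = 0.0446).

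Between strains 2 and 1, 5 of 8 members were called, all higher in strain 2, beside 52.7% of all genes (29.8% higher, 22.9% lower). Between strains 3 and 1, 5 were called, 3 higher and 2 lower in strain 3, beside 57.5% (33.1% and 24.4%). Between strains 3 and 2, 4 were called, 1 higher and 3 lower, beside 32.0% (17.5% and 14.5%). A moderated F test for any difference among the evolved strains called 6 of 8 members, beside 68.9% of all genes. The shares of members called were thus not far from those of all genes.

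The remaining family members were mostly not detected. Of 10 other genes of the family, 7 had an assigned probe set, and 3 of these (HXT9, HXT11 and GAL2) exceeded background on any array. HXT9 had a level of 7.25 ± 0.03 (SD, n = 2) on the arrays labelled parental against 7.06 ± 0.16 (SD, n = 6) over the evolved strains, a called difference of -0.19. Its other probe set differed by 0.25 the other way, so no direction is given for it. HXT11 differed by 0.05 (adjusted p = 0.709), and GAL2, the galactose permease, by -0.15 (adjusted p = 0.14) at the edge of background. HXT15 was also called, but it was at background on all 8 arrays.

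Among 8 genes of the sensor and Rgt1 branch, 3 were higher, 2 lower and 3 not called on the mean of the evolved strains, with a median difference of 0.02. Over all genes 86.7% were called, 43.3% higher and 43.4% lower, the background for this list and those that follow. STD1, whose product acts with Rgt1 in repression of the HXT genes, had by far the largest difference of the branch. It stood at 6.29 and 6.15 on the arrays labelled parental, 9.24 and 9.22 in strain 1, 9.42 and 9.39 in strain 2, and 9.23 and 9.21 in strain 3, and all 6 evolved arrays lay far above both labelled parental. It was 8.38-fold higher on the mean (adjusted p = 6.16e-09 in limma's test). MTH1, which encodes its relative, was 1.28-fold higher, YCK2, encoding a casein kinase of the pathway, was 1.72-fold higher, and RGT1 itself was lower by 1.34-fold on the deposited scale. The sensor genes differed by -0.03 for SNF3 and -0.09 for RGT2, and neither passed the test (adjusted p = 0.303 and 0.0784).

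Of 12 genes of the Snf1 and Mig1 branch, which controls glucose repression, 7 were higher and 5 lower on the mean of the strains, with a median of 0.19. MIG2, a repressor related to Mig1, was 2.80-fold higher and MIG1 2.26-fold higher, while MIG3 was 2.22-fold lower on the deposited scale. HXK2, the hexokinase that also acts in glucose repression, was 2.39-fold higher, and the other 2 genes for phosphorylation of glucose were higher too, HXK1 by 2.35-fold and GLK1 by 1.34-fold (adjusted p = 1.22e-06, 1.79e-08 and 5.72e-06 in limma's test). Of 10 genes known for expression when glucose is low, 1 was higher, 7 lower and 2 not called on the deposited scale, with a median of -0.77 beside -0.01 for all genes. SFC1, a mitochondrial succinate and fumarate carrier, was lower by 9.17-fold, FBP1, the gluconeogenic fructose bisphosphatase, by 4.02-fold, MLS1, malate synthase, by 3.17-fold, and CAT8, an activator of gluconeogenic genes, by 2.27-fold. ADH2, an alcohol dehydrogenase gene that glucose represses, was 1.78-fold higher, and the invertase gene SUC2 differed by -0.06 (adjusted p = 0.15). The values of these lists were known when they were chosen, and their part in the transporter differences was not tested.

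Of 4 polyol genes, 2 had an assigned probe set, and both were lower on the deposited scale. DSF1 lies beside HXT13, while MAN2, beside HXT17, had no assigned probe set. SOR2, a sorbitol dehydrogenase gene, was lower by 3.19-fold, and DSF1 by 1.13-fold (adjusted p = 2.08e-07 and 0.00141 in limma's test). The probe sets of both are marked as shared, so their levels are uncertain for either gene alone.

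The members lie on several chromosomes, some of them side by side. HXT4, HXT1 and HXT5 follow each other with only AHT1 between the first and second, and HXT7, HXT6 and HXT3 lie in another group. HXT1 was 4.0-fold higher while HXT5, next to it, differed by -0.20 on the log2 scale. Of 13 neighbouring genes that were not members, 6 were measured, 2 were higher and 4 lower on the deposited scale, with a median of -0.13. The largest was YDR341C, beside HXT7, at 1.62 ± 0.03 (SE), while HXT7 itself differed by -0.04. Signs were shared by HXT3 and SVF1 (3.55 and 0.58), HXT2 was higher while CLU1 differed by -0.07, and HXT4 was higher while MSR1 differed by -0.66. HXT13 and DSF1 (-1.32 and -0.18) and HXT17 and YNR071C (-0.66 and -0.30) were both lower on the deposited scale. The probe set of DSF1 is marked as shared, as is that of HXT17.

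The genes most like each called member were those with the smallest root mean square distance between centred log2 profiles over the 8 arrays, among 5260 non-member genes above background on all arrays. For HXT3 these were BIO5 at 0.08, ARO4 at 0.16 and RBD2 at 0.18, and for HXT4 they were ARO4 at 0.09, BIO5 at 0.11 and RBD2 at 0.12. HXT2 had no gene as close: PHO5 lay at 0.45, AAH1 at 0.59 and BIO5 at 0.70. This distance is not scaled for the size of a difference, which was largest for HXT2. Pearson r with HXT2 over the 8 arrays was 0.986, 0.996 and 0.973 for these genes. AAH1 was also highest in strain 2 and lowest of the evolved strains in strain 3. For HXT1 the nearest were AST1 at 0.29, FRM2 at 0.30 and YLL053C at 0.31. HXT5 was nearest to AVT6, at 0.03, HXT13 to BUD4, at 0.26, and HXT17 to YBR137W, at 0.04. Among the members themselves HXT5 and HXT7 were 0.12 apart, HXT3 and HXT4 0.14, and HXT2 and HXT3 0.63. All these profiles share the same 8 arrays and the large step between the arrays labelled parental and the evolved arrays.

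The scale on which the members are compared depends on the control RNAs. The 36 probe sets of the poly-A controls, bacterial RNAs added to the sample RNA before labelling, averaged 9.92 and 10.21 on the arrays labelled parental and 7.15 to 7.48 on the evolved arrays. All 36 were lower on every evolved array, by 2.74 log2 units on the mean. The 27 probe sets of the hybridisation controls, which are added after labelling, were all lower on the evolved arrays too, by 0.84 on the mean. The amounts added are not given in the sources used here. Scaled on the poly-A controls, the mean difference was 4.75 for HXT1, 7.25 for HXT2, 6.29 for HXT3, 6.11 for HXT4, 2.71 for HXT7, 1.42 for HXT13 and 2.08 for HXT17, and HXT5 lay at 2.55. Scaled on the hybridisation controls, it was 2.84 for HXT1, 5.35 for HXT2, 4.39 for HXT3, 4.21 for HXT4, 0.64 for HXT5, 0.81 for HXT7, -0.48 for HXT13 and 0.18 for HXT17. The median of all genes moved to 2.74 and 0.84 on these scales, so each gene kept its place relative to the other genes. HXT1 to HXT4 were higher in the evolved strains on all 3 scales, whereas the signs for HXT5, HXT7, HXT13 and HXT17 were not the same on all 3.

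**Figure D5:**
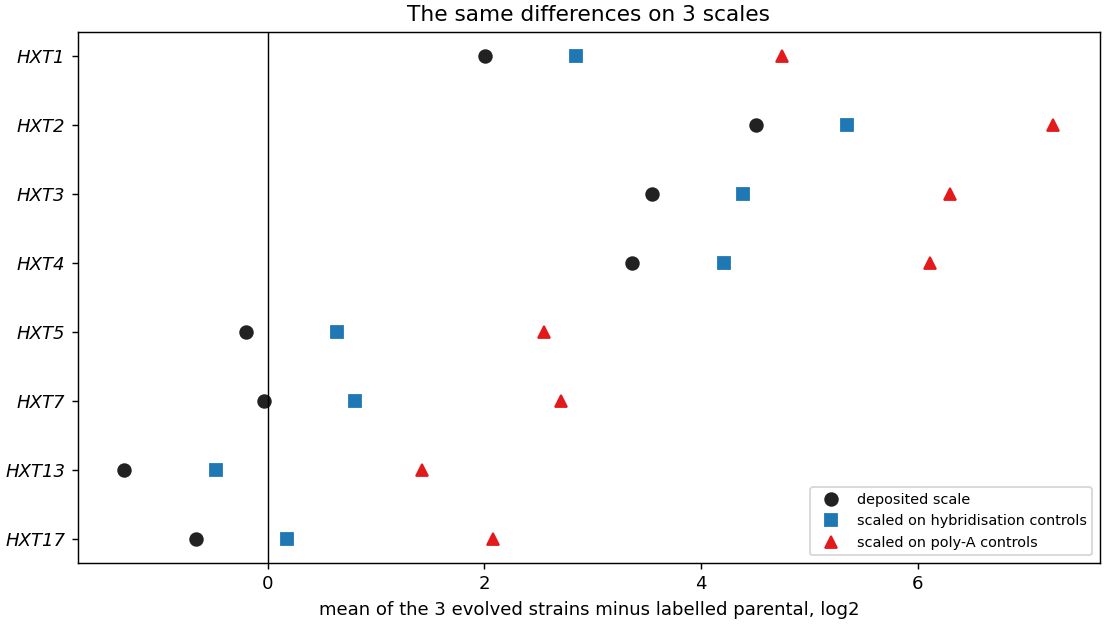
Mean difference of the evolved strains from the arrays labelled parental for each member, in log2, on the deposited scale, on the scale of the hybridisation controls and on that of the poly-A controls. HXT1 to HXT4 lie above 0 on all 3 scales, HXT5, HXT7 and HXT17 lie below 0 on the deposited scale alone, and HXT13 lies above 0 on the poly-A scale alone.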

How the data were processed

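The deposited intensity values were made by the authors with RMA, per the submitters' processing notes, from arrays hybridised with biotin-labelled cRNA of 100 ng total RNA. RMA includes background correction, quantile normalization over arrays and a summary of each probe set, so differences are relative to the whole array. The deposited intensity was on a linear scale, and log2 was taken here, with no pseudocount. Of 10928 probe sets, 5498 had 1 S. cerevisiae gene; the brightest was kept for the 47 genes with several, which gave 5449 genes. Median intensity per array was 52.6 to 63.0, and 5296 to 5326 genes were above background. Gene names and neighbours came from the annotation of the R64 assembly.

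All genes and all 8 arrays entered a linear model of group means in limma 3.58.1 in R 4.3.3 (statmod 1.5.0), with 4 residual degrees of freedom and a prior of 2.523. P-values were adjusted by Benjamini-Hochberg over 5449 genes and called under 0.05. The fit was tested on simulated data. Where 1 group of 2 arrays is compared with another, an exact permutation cannot go below p = 0.333. This limit does not apply to the mean of the 3 evolved strains. The number of arrays limits the precision. Replicates are named biological in the titles, with nothing said of separate cultures, so the p-values cover no more than the spread of these arrays. A gene at background on both arrays of one side has its fold against the background level, as a lower bound.

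The members and lists were chosen with earlier results of these data known. Named genes are every member, measured neighbours and the 3 genes most like each called member. Up to 4 genes by size of the mean difference were named from each list other than the strain markers. The named strain markers were not chosen by size of difference. SNF3, RGT2, ADH2, SUC2, HXT11 and GAL2 were named after their values were seen. Alternatives were median centring, quantile normalization, a background filter, log2(intensity + 16), a trended robust fit, the mean of probe sets, fits of the compared groups alone, a replicate block, strain as a random block, leaving out each array and, chosen after seeing the data, scaling on both kinds of control RNA and a fit of the 6 evolved arrays.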

Additional observations from a re-analysis of the deposited data

Results flagged for a closer look

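For 6 members the difference from the arrays labelled parental was not the same in the 3 evolved strains, by limma's moderated F test over the evolved strains with Benjamini-Hochberg adjustment. The range of the strain means, on the log2 scale, was 1.62 for HXT2 (adjusted p = 0.00124) and 1.60 for HXT1 (adjusted p = 0.000406), with strain 2 highest and strain 3 lowest for both. It was 0.38 for HXT3 (adjusted p = 0.000311), again with strain 2 highest. It was 0.30 for HXT4 (adjusted p = 0.00429), with strain 1 lowest, 0.36 for HXT5 (adjusted p = 0.00138), with strain 3 highest, and 0.15 for HXT7 (adjusted p = 0.0155), with strain 1 lowest. The call of HXT7 was lost with median centring (adjusted p = 0.117), without replicate 1 of strain 1 (0.0871) and without replicate 2 of strain 3 (0.0654). For HXT13 the test gave an adjusted p of 0.121, and 0.00546 on the 6 evolved arrays alone. On the poly-A control scale the calls of HXT3, HXT4, HXT5 and HXT7 were lost (adjusted p from 0.483 to 0.896), as were those of HXT4, HXT5 and HXT7 on the hybridisation scale (0.0857 to 0.541). The ranges of HXT3, HXT4, HXT5 and HXT7 on the poly-A scale were 0.40, 0.34, 0.43 and 0.22. The same test called 68.9% of all genes.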

How the results depend on the processing

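Over 64 member results (8 genes in 8 tests, 48 of them called), 536 alternative values that left out no array and used no control RNA kept the call in 513 cases, lost it in 10 and gained it in 13, and none turned a called direction. Leaving out 1 array gave 512 values, of which 481 kept the call, 25 lost it and 6 gained it. With strain as a random block the mean contrast called 3096 genes in place of 4725, and 5 members in place of 7. Scaling on the poly-A controls gave positive values where the deposited scale gave negative ones: HXT5 to 2.37 in strain 1, 2.47 in strain 2 and 2.55 on the mean, HXT7 to 2.59, 2.73 and 2.71, HXT13 to 0.96, 1.40, 1.91 in strain 3 and 1.42 on the mean, and HXT17 to 2.11, 2.02, 2.11 and 2.08. Scaling on the hybridisation controls gave 0.46, 0.60 and 0.64 for HXT5, 0.68, 0.86 and 0.81 for HXT7, and 0.20, 0.15, 0.19 and 0.18 for HXT17. These scalings shift all genes of an array together. Among evolved strains the poly-A scale called 66 genes and 2 members (strains 2 and 1), 62 and 1 (3 and 1), 24 and 2 (3 and 2), and 116 and 3 in the F test. In the same order, the hybridisation scale called 662 genes and 4 members, 647 and 4, 179 and 2, and 877 and 4. Leaving out 1 array, the counts ran from 4305 to 4678 genes and 7 to 8 members in strain 1, 4352 to 4699 and 7 in strain 2, 4299 to 4651 and 5 to 6 in strain 3, and 4620 to 4753 and 7 on the mean. Between strains 2 and 1 they ran from 1941 to 3469 and 4 to 5, between 3 and 1 from 2340 to 3672 and 2 to 6, between 3 and 2 from 760 to 2559 and 4 to 5, and in the F test from 2939 to 4381 and 5 to 7. The causes of these changes were not tested.

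The replicate numbers share only a name: same-numbered arrays of different groups deviated together at r = -0.12 to 0.03, over 0.1 in 0 of 6 pairs of groups. With the number as a replicate block 4707 genes were called on the mean, and 1 of the 64 member results changed, HXT7 between strains 2 and 1 (adjusted p = 0.0606). With 2 arrays a group, small differences of genes near background, such as HXT13, have wide intervals.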
